A study of Mus musculus with 22 samples.

Results

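The core circadian clock genes were followed through a ribosome profiling experiment on Denr knockdown in NIH3T3 cells, a line of mouse embryonic fibroblasts. The set comprised 10 genes chosen by name as the core of the oscillator, Clock, Arntl (also called Bmal1), Per1, Per2, Per3, Cry1, Cry2, Nr1d1, Nr1d2 and Rora, and all 10 were among the 10516 genes measured. DENR is a non-canonical initiation factor with a role in reinitiation, the resumption of scanning and initiation by a ribosome that has finished translating an upstream open reading frame (uORF). Confluent cells had been transduced with lentiviruses that express Denr shRNA1 or Denr shRNA2 (knockdown), or scramble shRNA or Gfp shRNA (control), and were given cycloheximide for a short time before lysis. There were 3 lysates for each Denr shRNA, 3 for scramble shRNA and 2 for Gfp shRNA, and each of these 11 lysates gave an RPF-seq library of ribosome-protected fragments (footprints) and an RNA-seq library. All groups therefore share the cell line, the viral transduction and the cycloheximide, and the replicates are separate dishes of 1 cell line. The labels give no circadian time, and each value is an average over the cells of a dish.

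Recovered totals over CDS and 5′ UTR regions ran from 10927303 to 21649878 reads in RPF-seq and from 8514080 to 20109700 reads in RNA-seq. Of 12 fibroblast marker genes 10 were analysed here (all but Lum and Postn), with Vim at 4163 and Col1a2 at 649 RPKM of RNA. Of the markers of other cell types 1 of 5 epithelial (Cdh1, 3.56 RPKM), 1 of 4 blood (Cd14, 15.6 RPKM) and 1 of 3 endothelial (Cdh5, 0.80 RPKM) were analysed here. Denr itself had 34.4 to 44.0 RPKM of CDS reads in the RNA-seq libraries labelled Denr shRNA1 and 15.5 to 20.8 RPKM in those labelled Denr shRNA2. The knockdown was thus deeper with Denr shRNA2, without overlap. Libraries labelled control had 165 to 190 RPKM (log2 change of all knockdown against control lysates -2.75, SE 0.25, limma adjusted p = 0.00035). The RNA-seq library of Denr shRNA1 replicate 1 stood apart from the others. Its median R2 with the other 10 RNA-seq libraries across genes was 0.958, while the remaining libraries lay between 0.970 and 0.984, and the library closest to it was that of Gfp shRNA replicate 1 (R2 = 0.985). These 2 libraries also had the lowest Clock RNA.

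The mammalian clock is a transcriptional feedback loop. CLOCK and ARNTL (BMAL1) form a heterodimer that binds E-box elements and activates the Per and Cry genes, whose products PER and CRY return to the nucleus and repress CLOCK-ARNTL. A second loop controls Arntl, which is repressed by the nuclear receptors REV-ERBα (Nr1d1) and REV-ERBβ (Nr1d2) and activated by RORα (Rora). Fibroblasts such as NIH3T3 run this oscillator cell-autonomously. uORFs are short reading frames in the 5′ UTR that usually lower the number of ribosomes reaching the CDS, and a CDS downstream of a translated uORF can be reached by leaky scanning or by reinitiation.

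The 5′ UTRs of the clock genes were read first, from GENCODE vM21 transcripts (GRCm38), taking for each gene the transcript with the longest CDS. A frame counted as an AUG uORF if it opened with AUG upstream of the CDS, closed at a stop codon of its own and spanned at least 9 nt. By this definition 7 of the 10 genes, Clock, Arntl, Per1, Per3, Cry1, Nr1d1 and Nr1d2, carried 20 AUG uORFs in all, and 5106 of 10249 genes of the files did so (49.8%). Per2, with a 5′ UTR of 170 nt, has a lone AUG followed at once by a stop codon, which gives a frame of only 6 nt. Cry2 (20 nt) and the Rora transcript used (21 nt) have no AUG, but with all annotated protein-coding transcripts counted, Rora gained 4 AUG uORFs on a 5′ UTR of 339 nt and the number of genes became 8. The 7 genes with an AUG uORF on the longest-CDS transcript were also the 7 with enough 5′ UTR footprints for a test (20 reads or more in 9 or more of the 11 libraries). The transcript used for the sequence can differ from the isoforms whose reads the authors summed. For Arntl the recovered 5′ UTR length was 520 nt, that of Arntl-201, where the transcript read here has 341 nt. For Rora it was 360 nt, that of Rora-201 and Rora-202 combined, so its counts include the 5′ UTR with AUG uORFs. The match between the 7 genes with an AUG uORF and the 7 covered genes therefore depends on the transcript chosen. For Cry1 no set of annotated transcripts gave the recovered 583 nt.

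Clock (ENSMUSG00000029238, chr5:76209868-76304792, minus strand) has a start region with overlapping frames, which is printed because Clock footprints changed in the comparison of knockdown and control cells. On transcript Clock-201 the 5′ UTR of 388 nt holds 3 AUG uORFs of 66, 48 and 30 nt. The first lies in exon 3 and ends 55 nt before the CDS. The second and the third lie in exon 4, as does the CDS start, and run 16 and 23 nt into the CDS in other reading frames. The next in-frame AUG of the CDS is codon 10, and it begins downstream of the stop codons of both overlapping uORFs. Capitals mark the AUG (written ATG), after 9 bases of upstream and before 6 bases of downstream sequence, on the strand of the mRNA. The start context was scored with 3 points each for G at position -6, A or G at -3 and G at +4, and 1 point each for C at -5, -4, -2 and -1, to a maximum of 13. Among all genes the median score was 4 for AUG uORFs and 7 for CDS starts.
Clock uORF 1 (chr5:76274034-76274036, score 6): agagttctgATGgtcagt
Clock uORF 2 (chr5:76266876-76266878, score 3): gaagtacaaATGtctacc
Clock uORF 3 (chr5:76266851-76266853, score 4): gaaaacataATGtgttat
Clock CDS start (chr5:76266844-76266846, score 6): taatgtgttATGgtgttt
Clock codon 10 (chr5:76266817-76266819, score 3): tgtagtaaaATGagctca

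On the transcripts used, Per1 is the other member with a uORF that overlaps its CDS, a frame of 15 nt that ends 4 nt into the CDS. Other annotated transcripts of Arntl (Arntl-203), Nr1d2 (Nr1d2-204) and Rora (Rora-202) also carry an overlapping AUG uORF. An overlapping AUG uORF was present in 1659 of the 10249 genes (16.2%). Nr1d1 (chr11:98767932-98775333, minus strand) and Per3 (chr4:151003652-151044665, minus strand) are printed next, since they mark the ends of the range of translation efficiency described below. Nr1d1 has a 5′ UTR of 585 nt with a long uORF of 192 nt and, directly after it, one of 21 nt whose stop codon ends 4 nt before the CDS. Per3 has 4 uORFs within 433 nt, of which the last 2 share a stop codon 29 nt before the CDS, and a CDS start with a score of 10.
Nr1d1 uORF 1 (chr11:98774963-98774965, score 2): gctcttcccATGcaaatc
Nr1d1 uORF 2 (chr11:98774771-98774773, score 3): ccagtttgaATGaccgct
Nr1d1 CDS start (chr11:98774746-98774748, score 7): ggtgaagacATGacgacc
Per3 uORF 1 (chr4:151044513-151044515, score 2): tgtttctcgATGctcgcc
Per3 uORF 2 (chr4:151044369-151044371, score 6): tctgtggaaATGctgagg
Per3 uORF 3 (chr4:151044343-151044345, score 1): gcccctcagATGagcgtg
Per3 uORF 4 (chr4:151044307-151044309, score 7): ccgaaggcgATGgcaggg
Per3 CDS start (chr4:151044230-151044232, score 10): ccaggcgggATGgatccc
The remaining members with AUG uORFs were Arntl and Nr1d2, with 4 and 3, and Cry1, with 2 on a 5′ UTR of 593 nt, the longest of the set. Which of these frames were translated was not analysed here, since the files give reads per region and not their positions.

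**Figure D1:**
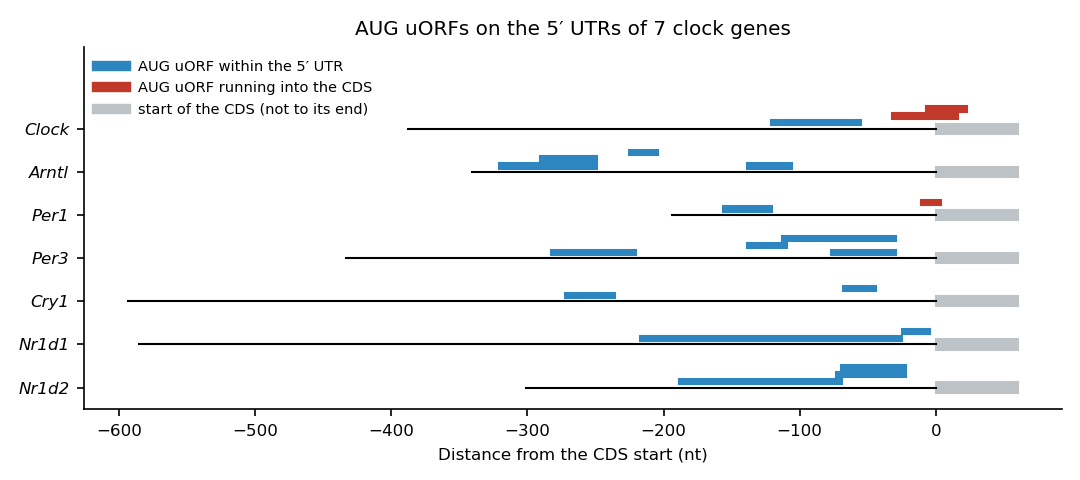
AUG uORFs of the 7 clock genes that have one, drawn to scale on the 5′ UTR of the transcript with the longest CDS, with the distance from the CDS start in nt on the x axis. Black lines are 5′ UTRs and grey boxes mark where the CDS begins. Blue boxes end before the CDS, while the red boxes of Clock and Per1 run into it.

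The baseline was described in the 5 control lysates (3 scramble, 2 Gfp), as RPKM, that is reads per kilobase of region scaled to library size, so that genes can be compared per length. The most abundant clock mRNAs were those of the REV-ERBs and of Clock. Nr1d2 had 58.0 ± 11.7 RPKM (SD, n = 5) in RNA-seq, Nr1d1 43.6 ± 3.93 and Clock 30.3 ± 8.33 RPKM. Per3, Arntl, Cry2, Cry1 and Rora followed with means from 12.9 down to 5.80 RPKM, and Per1 and Per2 were lowest, at 2.85 ± 0.448 and 2.84 ± 0.700 RPKM. In this order 7 of the 9 pairs of neighbours had overlapping ranges, and the gaps lay between Clock and Per3 and between Rora and Per1.

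The order of CDS footprints differed from that of RNA. Nr1d1 led with 85.4 ± 6.95 RPKM (SD, n = 5), and its lowest control lysate (77.4 RPKM) lay above the highest of Nr1d2 (26.6 RPKM), although Nr1d2 had more RNA than Nr1d1 in 11 of 11 lysates. Clock, behind the REV-ERBs in RNA and in footprints, had 11.03 ± 1.19 RPKM of footprints. Per3 dropped from the fourth place in RNA to the ninth in footprints, with 2.76 ± 0.563 RPKM, and only Per2 was lower, at 1.85 ± 0.331 RPKM, in a range that overlapped that of Per3.

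**Figure D2:**
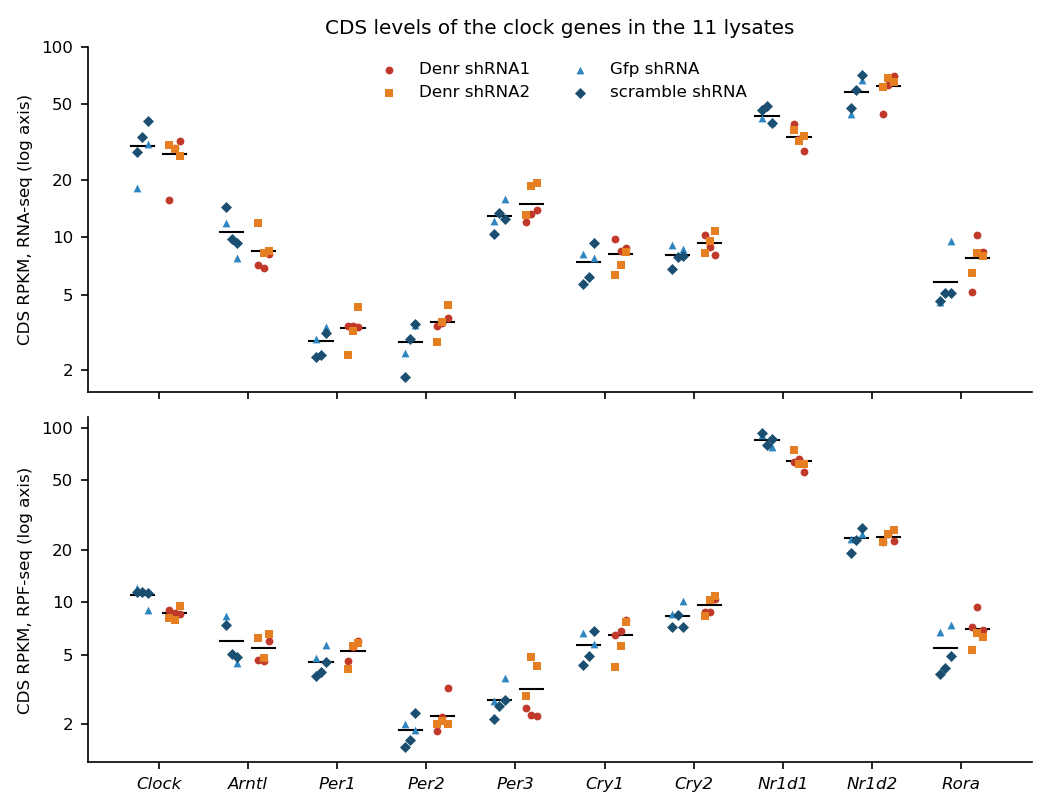
CDS RPKM of the 10 clock genes in RNA-seq (top) and RPF-seq (bottom) on log axes. Each point is 1 lysate, coloured by shRNA, with control lysates on the left and knockdown lysates on the right of each gene, and black bars are means. Knockdown and control lysates separate fully for Nr1d1 in both assays, and for no other gene.

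Translation efficiency (TE) was the ratio of footprint to RNA RPKM of the CDS in a lysate, taken as the difference of log2(RPKM + 0.1). Across the clock genes the mean log2 TE in control cells spanned from 0.97 for Nr1d1 to -2.19 for Per3, with a median over all 10516 genes of -0.08. Nr1d1 (0.97 ± 0.17, SD, n = 5) and Per1 (0.66 ± 0.08) were higher than 92.2% and 84.4% of all genes. Cry2 (0.03 ± 0.15), Rora (-0.08 ± 0.37) and Cry1 (-0.38 ± 0.07) lay near the middle, and Per2 (-0.57 ± 0.27) and Arntl (-0.82 ± 0.19) below it. The lowest values were those of Nr1d2 (-1.31 ± 0.21), Clock (-1.41 ± 0.51) and Per3 (-2.19 ± 0.11), which exceeded 12.2%, 10.6% and 3.19% of genes. As plain ratios these are 1.96 footprint RPKM per RNA RPKM for Nr1d1, 0.376 for Clock and 0.219 for Per3. The recovered CDS of Per3, 3496 nt, is longer than the 3342 nt of Per3-201, so its CDS values can include bases outside the transcript described above. Neighbours in this order overlapped in range except at 2 places, between Per1 and Cry2 and between Clock and Per3.

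Closely related members differed in TE. Nr1d1 and Nr1d2 encode nuclear receptors that repress the same targets, yet the log2 TE of Nr1d1 exceeded that of Nr1d2 by 2.27 ± 0.20 (SD, n = 5 control lysates), a 4.84-fold difference, against -0.39 ± 0.37 in log2 RNA. For the PER proteins, the repressors of CLOCK-ARNTL, Per1 exceeded Per3 by 2.85 ± 0.14 on the log2 TE scale and Per2 by 1.22 ± 0.31. Per2 exceeded Per3 by 1.62 ± 0.28. Between the partners Arntl and Clock the difference in log2 TE was 0.59 ± 0.39, and between the cryptochromes Cry2 exceeded Cry1 by 0.41 ± 0.17. The direction of each of these 6 differences was the same in 11 of 11 lysates, the knockdown lysates included. These differences between genes are described without a test.

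The spread of Clock TE (SD 0.51) was the largest of the set, and its RNA varied more than its footprints. Clock footprints in the controls were 12.04 and 8.96 RPKM with Gfp shRNA and 11.4, 11.5 and 11.3 RPKM with scramble shRNA. Clock RNA in these lysates was 18.1 and 30.9 RPKM, and 28.2, 33.7 and 40.9 RPKM. The lysate with the least Clock RNA, Gfp shRNA replicate 1, thus had the highest log2 TE of Clock (-0.58), while the other 4 control lysates lay between -1.84 and -1.30.

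Relative 5′ UTR translation was the log2 ratio of 5′ UTR to CDS footprint RPKM, for the 7 genes with 5′ UTR coverage. All 7 lay above the median of the 5175 covered genes (-0.89) in control cells. Coverage requires 5′ UTR footprints, the numerator of this ratio, so it favours a high ratio in genes with few CDS footprints. For such genes a place above the median can follow from the filter, and the percentiles hold for covered genes only. Of the members left out, Rora had -1.37 and Per2 -0.55 in control cells, from few reads. Per3 was highest with 2.202 ± 0.32 (SD, n = 5), which exceeded 98.0% of covered genes and equals 4.60 times as many footprints per base on the 5′ UTR as on the CDS. Clock followed with 1.00 ± 0.33 (above 90.1% of genes, a ratio of 2.00), then Per1 (0.92 ± 0.38), Nr1d2 (0.76 ± 0.41), Nr1d1 (0.43 ± 0.23), Arntl (0.03 ± 0.68) and Cry1 (-0.02 ± 0.20). The only gap between neighbours was that between Per3 and Clock. Per3 had the lowest TE and the highest relative 5′ UTR translation of the set. CDS footprints are the numerator of the former and the denominator of the latter, so a low CDS value alone moves the measures in opposite directions. Per1 and Nr1d1, with TE in the upper range of all genes, also had more footprints per base on the 5′ UTR than on the CDS. Across 7 genes measured in the same libraries these orders are a description only.

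**Figure D3:**
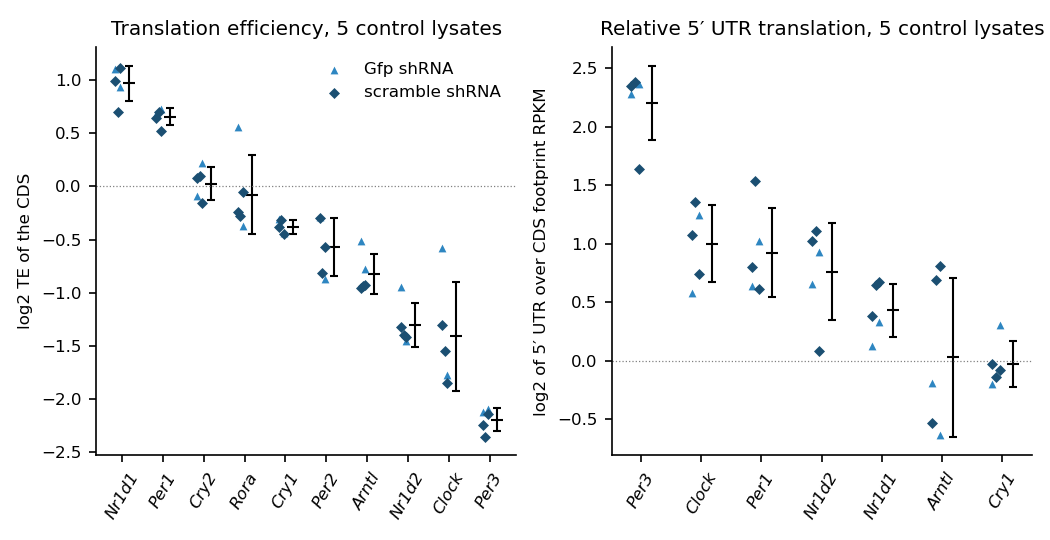
Baseline values of the clock genes in the 5 control lysates, ordered by mean. Left, log2 TE of the CDS for 10 genes. Right, log2 ratio of 5′ UTR to CDS footprint RPKM for the 7 genes with 5′ UTR coverage. Points are lysates, coloured by control shRNA, and bars are mean ± SD, with Per3 lowest on the left and highest on the right. CDS footprints enter both ratios, as numerator on the left and denominator on the right.

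The same ratio in RNA-seq, where ribosomes do not select the fragments, differed between the genes too. It was 0.56 ± 0.18 for Per1, 0.23 ± 0.12 for Nr1d1 and 0.21 ± 0.18 for Per3, above 96.1%, 92.5% and 92.3% of covered genes, and -1.74 ± 0.46 for Nr1d2, above 22.4%. Dividing 5′ UTR footprints by the RNA-seq reads of the 5′ UTR gave a 5′ UTR TE. On this log2 scale Nr1d2 (1.19), Nr1d1 (1.17), Per1 (1.02) and Cry1 (0.74) lay above 86.6% to 94.0% of covered genes. Arntl (0.17), Clock (0.04) and Per3 (-0.20) lay nearer to the median of -0.14. The high relative 5′ UTR translation of Per3 and Clock went with a low CDS TE and a 5′ UTR TE near the median. In Nr1d2, Nr1d1, Per1 and Cry1 5′ UTR footprints were high relative to their RNA, and of these Nr1d2 also had a low CDS TE.

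Knockdown and control cells were compared with limma on the log2 scale, with Benjamini-Hochberg adjustment over all genes of the measure and an FDR of 0.1. In RNA-seq 1 of the 10 clock genes changed, Nr1d1, which fell, where 3.55% of all genes were called. Nr1d1 RNA was 39.2, 32.7 and 28.5 RPKM with Denr shRNA1 and 36.5, 32.1 and 34.2 RPKM with Denr shRNA2, against 42.4 and 40.4 RPKM with Gfp shRNA and 46.7, 48.8 and 39.9 RPKM with scramble shRNA. Because the samples are bulk lysates, fewer cells that express a gene and less RNA per cell cannot be told apart. Each of the 6 knockdown lysates lay below each of the 5 control lysates, a separation found for 3.67% of all genes. The log2 change was -0.37 (SE 0.09, limma adjusted p = 0.0556, n = 6 and 5), or 22.4% lower. This call was lost, with adjusted p from 0.105 to 0.178, when replicate 2 of Denr shRNA1, replicate 2 or 3 of Denr shRNA2, or replicate 1 or 2 of scramble shRNA was left out, with the change between -0.37 and -0.33. It was also lost with Denr shRNA1 alone (-0.39, limma adjusted p = 0.205) and with Gfp shRNA as the only control (-0.29, adjusted p = 0.875), and kept with Denr shRNA2 alone (-0.35, adjusted p = 0.0788).

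The other 9 mRNAs did not pass the threshold. Rora (0.44, adjusted p = 0.301 from limma) and Per2 (0.35, adjusted p = 0.306) had the largest estimates and were the only ones besides Nr1d1 with an unadjusted p below 0.05. Arntl, the target of the REV-ERBs and RORα, had an estimate of -0.31 (95% confidence interval -0.66 to 0.04), and Clock one of -0.14 (-0.58 to 0.31). The median change over the 10 genes was 0.17, against 0.03 over all genes. Rora RNA depended on 1 control lysate, Gfp shRNA replicate 2, at 9.59 RPKM where the other 4 controls lay between 4.58 and 5.11 RPKM. Without it the estimate for Rora was 0.64 (limma adjusted p = 0.0700).

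Of the CDS footprints, 2 of 10 clock genes changed and both fell, Nr1d1 and Clock, where 10.0% of all genes were called. Nr1d1 footprints were 63.5, 66.1 and 55.8 RPKM with Denr shRNA1 and 74.3, 62.0 and 62.2 RPKM with Denr shRNA2, against 90.9 and 77.4 RPKM with Gfp shRNA and 93.1, 79.1 and 86.3 RPKM with scramble shRNA. The groups did not overlap, as for 4.45% of all genes. The log2 change was -0.42 (SE 0.07, limma adjusted p = 0.0111, n = 6 and 5), or 25.1% lower, and it stayed past the threshold with each lysate left out in turn. Nr1d1 RNA and Nr1d1 footprints therefore fell by like amounts. Of the coding bases of Nr1d1, 197 (10.7%) are shared with exons of Thra on the opposite strand, and whether the counts are specific to a strand is not given in the sources used here. Thra, a thyroid hormone receptor named for this overlap, had estimates in the opposite direction, 0.32 in RNA (limma adjusted p = 0.152) and 0.28 in footprints (adjusted p = 0.173).

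Clock footprints on the CDS were 8.96, 8.67 and 8.54 RPKM with Denr shRNA1 and 8.09, 7.94 and 9.55 RPKM with Denr shRNA2. The controls had 12.04 and 8.96 RPKM with Gfp shRNA and 11.4, 11.5 and 11.3 RPKM with scramble shRNA. All knockdown lysates lay below 4 of the 5 controls, and the exception was Gfp shRNA replicate 2. The log2 change was -0.35 (SE 0.08, limma adjusted p = 0.0335, n = 6 and 5), or 21.4% lower. It held with each lysate left out (limma adjusted p 0.00700 to 0.0859), and the estimates with Denr shRNA1 alone (-0.33, adjusted p = 0.108) and Denr shRNA2 alone (-0.37, adjusted p = 0.0996) were close, although only the latter passed the threshold. These values rest on 208 to 589 Clock footprints per library.

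The other 8 genes did not pass the threshold for CDS footprints, with estimates from -0.11 for Arntl to 0.38 for Rora (limma adjusted p = 0.204). Without Gfp shRNA replicate 2, Rora (0.50, limma adjusted p = 0.0718) and Cry2 (0.29, adjusted p = 0.0759) passed, and the calls over all 10516 genes went from 1053 to 1946. With scramble shRNA as the only control, 5 clock genes passed: Nr1d1 and Clock fell as before, and Per1 (0.35), Cry2 (0.33) and Rora (0.66) rose. Calls over all genes also went up, to 2651 of 10516. With Gfp shRNA as the only control none of the clock genes passed, and 92 of all genes did. The control shRNAs differed from each other for 1 clock gene, Rora, whose footprints were 6.77 and 7.39 RPKM with Gfp shRNA and 3.89, 4.20 and 4.94 RPKM with scramble shRNA (log2 difference 0.70, limma adjusted p = 0.0289, 8.48% of genes called). The 6 knockdown lysates had 5.34 to 9.36 RPKM (median 6.81), above all scramble lysates. Between the control shRNAs no clock gene differed in RNA (0.704% of genes called), TE (0.0%) or relative 5′ UTR translation (0.0%), and the only unadjusted p below 0.05 was that of Arntl in relative 5′ UTR translation (limma).

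**Figure D4:**
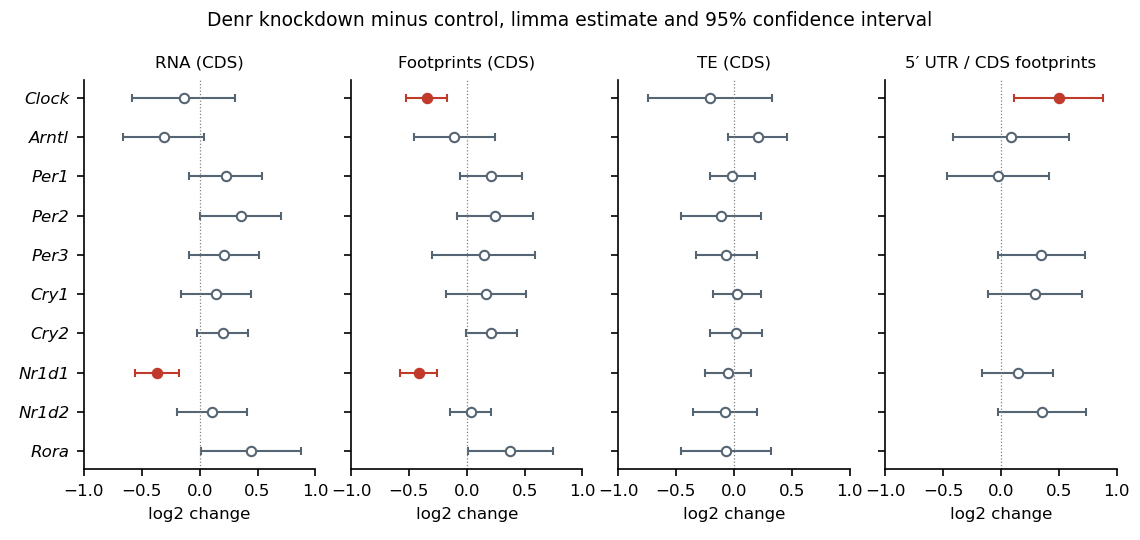
Change of the clock genes in Denr knockdown against control cells (log2, x axis) in CDS RNA, CDS footprints, TE and relative 5′ UTR translation. Points are limma estimates from 6 and 5 lysates, bars are 95% confidence intervals, and filled red points passed an FDR of 0.1: Nr1d1 in RNA and footprints, Clock in footprints and relative 5′ UTR translation. Per2, Cry2 and Rora had too few 5′ UTR reads for the last panel.

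No clock gene changed in TE by limma, where 0.475% of all genes were called. None of the 10 had an unadjusted p below 0.05, and voom on the recovered reads called none either. The most negative estimate was that of Clock, -0.21 (SE 0.25, 95% confidence interval -0.75 to 0.33), and 8.91% of all genes had a lower estimate. Arntl had the most positive, 0.21 (-0.05 to 0.46). The estimates of the other 8 genes lay between -0.11 and 0.03. For Nr1d1, with -0.05 (-0.25 to 0.15), the interval limits a decrease in TE to 0.25 on the log2 scale.

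For Clock the RNA values varied more than the footprints, as at baseline. Its log2 TE was -0.80, -1.76 and -1.90 with Denr shRNA1 and -1.90, -1.86 and -1.48 with Denr shRNA2, against -0.58 and -1.77 with Gfp shRNA and -1.30, -1.55 and -1.84 with scramble shRNA. The 2 high values belong to Denr shRNA1 replicate 1 and Gfp shRNA replicate 1, whose RNA-seq libraries had 15.7 and 18.1 RPKM of Clock against 26.9 to 40.9 RPKM in the other 9. Without the former the change in TE was -0.37 (limma adjusted p = 0.547), and without the latter it was -0.0017 (adjusted p above 0.99). A change in Clock TE was thus not detectable with these lysates, and neither its presence nor its absence is shown.

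Relative 5′ UTR translation rose for 1 of the 7 covered clock genes, Clock, where 18.1% of covered genes were called. The log2 ratio of 5′ UTR to CDS footprints of Clock was 1.42, 1.65 and 1.65 with Denr shRNA1 and 1.55, 1.73 and 0.98 with Denr shRNA2. The controls had 0.58 and 1.25 with Gfp shRNA and 1.08, 1.35 and 0.74 with scramble shRNA. Of the 6 knockdown lysates 5 lay above all controls, and Denr shRNA2 replicate 3 lay among them. The change was 0.50 (SE 0.18, limma adjusted p = 0.0926, n = 6 and 5), which took the ratio from 2.00 to 2.83. The call was close to the threshold and was lost in 8 of the 11 fits with a lysate left out (estimates 0.39 to 0.60, limma adjusted p up to 0.217), all but those without Denr shRNA2 replicate 3, Gfp shRNA replicate 2 or scramble shRNA replicate 2. In the 8 fits that lost it, 38 to 800 of the 5175 covered genes were called, against 939 with all lysates. The fits that kept it called 965, 1773 and 1139, so the loss went with fewer calls over all covered genes.

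Of the 0.50 by which the Clock ratio rose, 0.35 was the decrease of CDS footprints and 0.15 the estimate for the 5′ UTR. Clock 5′ UTR footprints had 18.9 to 27.4 RPKM in knockdown (median 25.4) and 18.1 to 29.5 RPKM in control lysates (median 21.4), with a log2 change of 0.15 (95% confidence interval -0.20 to 0.50, limma adjusted p = 0.500), from 141 to 203 reads per library. The median change of 5′ UTR footprints over all covered genes was 0.30, and 24.4% of covered genes had a lower estimate than Clock. In the RNA-seq libraries the 5′ UTR to CDS ratio of Clock had a change of 0.09 (-0.21 to 0.40). The recovered 5′ UTR of Clock, 526 nt, equals the combined 5′ UTRs of Clock-201 and Clock-205, so the 5′ UTR values can include bases outside the transcript described above. Footprints over the part of the overlapping uORFs that lies in the CDS were counted as CDS, because the authors gave that region preference.

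**Figure D5:**
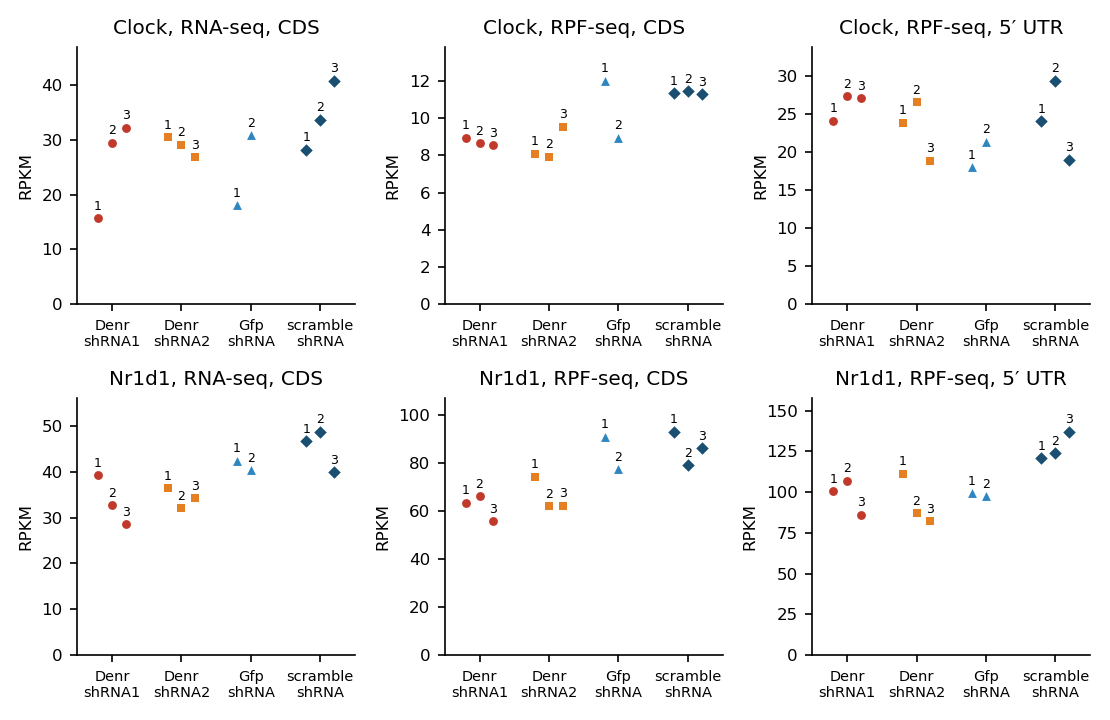
Clock (top) and Nr1d1 (bottom) in each lysate, as RPKM of CDS RNA, CDS footprints and 5′ UTR footprints, with the shRNA on the x axis and the replicate number beside each point. All y axes start at 0. Clock CDS footprints of the knockdown lysates sit at 7.94 to 9.55 RPKM, below all controls except Gfp shRNA replicate 2, and both Nr1d1 CDS panels separate without overlap.

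The 6 other covered genes did not pass the threshold in this fit. With the replicate number as a block, Per3 and Nr1d2 passed besides Clock, where 2418 of the 5175 covered genes were called. The values that follow are from the fit without the block. Nr1d2 (0.36, limma adjusted p = 0.168), Per3 (0.35, adjusted p = 0.175) and Cry1 (0.30, adjusted p = 0.258) had estimates near the median of 0.33 over all covered genes. Nr1d1 (0.14), Arntl (0.09) and Per1 (-0.02, 95% confidence interval -0.47 to 0.42) were lower. The median of the 7 clock genes was 0.30. Of Per3, 5 of 6 knockdown lysates lay above all controls (2.27 to 2.89 against 1.64 to 2.38). In 5′ UTR footprints themselves 0 of the 7 genes passed in limma, where 23.1% of covered genes were called. Per3 (0.49), Cry1 (0.46) and Nr1d2 (0.39) had an unadjusted p below 0.05 and limma adjusted p from 0.105 to 0.124, and Nr1d1 had -0.27 (adjusted p = 0.197), and 0.870% of covered genes had a lower estimate.

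In the 5′ UTR to CDS ratio of RNA-seq limma called 0 of the 7 clock genes and 0.0% of covered genes, and at an unadjusted p below 0.05 there were 0 clock genes, with 116 higher and 105 lower among 5175 genes. In 5′ UTR TE, 0 of 7 clock genes passed, where 0.0773% of covered genes were called. Cry1 had the largest estimate there, 0.38 (unadjusted p = 0.0432 from limma, adjusted p = 0.237), and was the only clock gene with an unadjusted p below 0.05.

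Per2, Rora and Cry2 had too few 5′ UTR footprints for that fit. Per2 had 2 to 11 and Rora 4 to 26 reads per library on the 5′ UTR. Two-sided exact permutation tests enumerated 462 ways of dividing the 11 lysates. Their relative 5′ UTR translation differed by 0.72 (exact p = 0.165, 0.329 after adjustment for both genes) for Per2 and 0.29 (exact p = 0.400) for Rora between knockdown and control, with overlapping groups. Cry2 had no footprint on its 5′ UTR of 20 nt in any of the 11 libraries, against 2431 on its CDS. With 3 reads as the limit that a count of 0 allows, its ratio of 5′ UTR to CDS footprints per base would be at most 0.110 if all 20 nt could receive footprints. The study counted each footprint at its putative A-site, inside the read, so the first bases of this 5′ UTR could receive none. The actual limit is therefore higher than 0.110, which covers counting error only, and the absence of footprints says little about this 5′ UTR.

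The Denr shRNAs differed from each other for 1 clock gene in 1 measure, the CDS footprints of Per3, where 9.69% of genes were called. Per3 footprints were 2.46, 2.25 and 2.23 RPKM with Denr shRNA1 and 2.90, 4.82 and 4.30 RPKM with Denr shRNA2, and the controls had 2.13 to 3.67 RPKM (median 2.70). The log2 difference was 0.73 (SE 0.19, limma adjusted p = 0.0372). In RNA (0.36, limma adjusted p = 0.364) and TE (0.37, adjusted p = 0.972) the difference of Per3 had the same direction without passing the threshold, and in both it had an unadjusted p below 0.05. No clock gene differed between the Denr shRNAs in RNA (2.06% of genes called), TE (0.0%) or relative 5′ UTR translation (0.0%). For Clock the differences were -0.04 ± 0.11 (SE) in footprints and -0.15 ± 0.26 in relative 5′ UTR translation, and for Nr1d1 0.10 ± 0.10 in footprints.

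Genes around the core loop were examined as a list of 24, of which 20 were tested. In RNA 2 of 20 rose and none fell, where 3.55% of all genes were called. These were Bhlhe40, a transcriptional repressor that competes at E-boxes (0.50, limma adjusted p = 0.0370), and Dbp, an output transcription factor driven by CLOCK-ARNTL (0.36, adjusted p = 0.0754). Bhlhe40 also rose in footprints (0.41, limma adjusted p = 0.0355), as the only one of the 20, where 10.0% of all genes were called. In TE limma called 0 of 20, where 0.475% of all genes were called, with 2 at an unadjusted p below 0.05 (Ciart and Usp2, chosen after their values were seen). In relative 5′ UTR translation 1 of 11 covered genes rose, Fbxw11, a subunit of a ubiquitin ligase that acts on PER proteins (0.59, limma adjusted p = 0.0920), where 18.1% of covered genes were called. The medians of the list were 0.03 in RNA, 0.02 in footprints, -0.02 in TE and 0.33 in relative 5′ UTR translation, against 0.03, 0.01, -0.01 and 0.33 over all genes tested.

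The genes whose TE varied most like that of Clock over the 11 lysates, after centring each gene on its mean, were 4930503L19Rik, Exoc5 and 4930522L14Rik. Their root mean square difference from Clock was 0.0862, 0.0992 and 0.109 log2 units, among 10147 genes with a mean CDS RPKM of at least 1 in both assays. Their changes in TE were -0.22, -0.25 and -0.23, with limma adjusted p from 0.991 to 0.998. Because these genes were picked for TE values close to those of Clock in the same lysates, changes near that of Clock follow from the choice and are no separate result. All values of this comparison come from the same 22 libraries, including the RNA-seq library that stood apart.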

How the data were processed

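RPF-seq and RNA-seq of 11 lysates gave 22 libraries. Per the labels and the study's methods, the authors trimmed reads with cutadapt, aligned them with Bowtie2 (2.2.1) and TopHat2 (2.0.11) to the mouse genome (GRCm38.p2), chose expressed isoforms with Cufflinks (2.2.1), counted reads of CDS and 5′ UTR with preference to the CDS, and deposited RPKM values after upper-quartile normalization with edgeR. Whether counting used strand is not given in the sources used here. Read numbers were recovered from the RPKM steps, since low values are whole multiples of what 1 read is worth.

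Values were tested on log2(RPKM + 0.1) with limma (3.58.1, lmFit and eBayes with trend, R 4.3.3), with Benjamini-Hochberg adjustment over all genes and an FDR of 0.1. Fold changes on this scale understate changes of low genes. Both Denr shRNAs (6 lysates) were set against both control shRNAs (5 lysates), with TE formed per lysate. For 5′ UTR measures a gene needed 20 footprints in 9 of 11 libraries, which 5175 genes had. The 95% confidence intervals are those of limma and rest on the spread between lysates. The limit for a zero count covers counting error only, and reads without molecular identifiers are not independent molecules.

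The genes named are the 10 clock genes, Denr, genes of the clock neighbourhood list past the threshold, the 3 closest to Clock in TE, and cell type markers. Thra, Ciart and Usp2 were named after their values were seen. Members and lists were chosen with earlier results of these data known. Alternatives were other pseudocounts, an RPKM filter, centring, eBayes without trend, voom on recovered reads, each Denr shRNA alone, scramble shRNA alone, a replicate block, other 5′ UTR filters and each lysate left out. Gfp shRNA alone as control was chosen after seeing the data. Python (3.11.15) read the annotation (GENCODE vM21).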

Additional observations from a re-analysis of the deposited data

Results flagged for a closer look

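Of 74 groups of 5 or 6 lysates tested for a single value far from the others, 8 had one, where chance gives about 5 percent. Of these, 5 belong to the lysates Denr shRNA1 replicate 1 and Gfp shRNA replicate 1 or 2 in RNA-seq or in TE. The log2 RNA level of Clock was 3.98 in Denr shRNA1 replicate 1, where the nearest of the other knockdown lysates had 4.75. In the same library log2 Nr1d2 RNA was 5.48 (nearest 5.95), and the log2 TE of Rora was 0.461 (nearest -0.139). In Gfp shRNA replicate 1 the log2 TE of Nr1d2 was -0.946 against -1.33 in the nearest control lysate. In Gfp shRNA replicate 2 log2 Rora RNA was 3.28 (nearest 2.38), and log2 Clock footprints on the CDS were 3.18 (nearest 3.51). The log2 CDS footprint level of Per2 was 1.73 in Denr shRNA1 replicate 3, above 1.19 in the nearest lysate. Relative 5′ UTR translation of Per3 was 1.64 in scramble shRNA replicate 3, below 2.27 in the nearest. What set these values apart was not tested.

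The effect of knockdown on Per3 CDS footprints differed between the Denr shRNAs, being higher with Denr shRNA2 than with Denr shRNA1 by 0.734 on the log2 scale (limma adjusted p = 0.0372), with 3 of 3 Denr shRNA2 lysates above 3 of 3 Denr shRNA1 lysates.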

How the results depend on the processing

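With each lysate left out the number of clock genes called ranged from 0 to 2 in RNA (1 with all lysates), from 2 to 4 in CDS footprints (2), from 0 to 1 in relative 5′ UTR translation (1), and stayed at 0 in TE. These fits called 139 to 734 of all genes in RNA and 484 to 1946 in CDS footprints. In TE they called 14 to 72 of all genes, and in relative 5′ UTR translation 38 to 1773 of covered genes. RNA called 0 with Denr shRNA1 alone, 2 with scramble shRNA alone and 0 with Gfp shRNA alone as control. CDS footprints called 1, 5 and 0 under these settings. The calls over all 10516 genes moved too, to 159, 940 and 18 in RNA (from 373) and to 817, 2651 and 92 in CDS footprints (from 1053). Relative 5′ UTR translation called 0 with either Denr shRNA alone, with either control alone, with all genes of finite 5′ UTR RPKM, with an RPKM filter on the 5′ UTR (1 or more in 9 of 11 libraries), and with 5′ UTR footprints over 5′ UTR RNA-seq reads. Over all genes tested these settings called 4 to 514, against 939. Some of these settings hold fewer samples, and beyond that the cause was not tested.

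The labels do not say whether the replicate numbers pair the lysates, and the main fits leave the numbers out. Same-numbered lysates of different shRNAs deviated together more than others did. Their mean correlations were 0.33 in RNA, 0.18 in CDS footprints, 0.23 in TE and 0.21 in relative 5′ UTR translation, against -0.16, -0.09, -0.11 and -0.10 for different numbers. Each lysate entered as its deviation from the mean of its shRNA, and such deviations cancel within an shRNA. The values for different numbers therefore largely follow from those for the same number and are no separate comparison. Most same-numbered pairs, but not all, correlated above 0.1 (13 of 15 in CDS footprints, 11 in relative 5′ UTR translation, 10 in RNA and 10 in TE). In RNA-seq 5 of 11 lysates were closest to their own number, and in RPF-seq 9 of 11. How many would be so by chance was not tested. With the replicate block 3 clock genes were called in relative 5′ UTR translation, Clock, Per3 (0.40, limma adjusted p = 0.0489) and Nr1d2 (0.40, adjusted p = 0.0631). The block called 1003 genes in RNA, 1940 in CDS footprints, 58 in TE and 2418 in relative 5′ UTR translation, against 373, 1053, 50 and 939 without it. Centring libraries changed the RNA calls from 282 higher and 91 lower to 191 and 107.

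Estimates that changed sign had not been called in any case. In RNA these were Cry1 with Denr shRNA2 alone (-0.014) and Clock with Gfp shRNA alone (0.17). In CDS footprints they were Per3 (-0.22) and Nr1d2 (-0.0029) with Denr shRNA1 alone, and Per3 (-0.061), Nr1d2 (-0.0066) and Rora (-0.043) with Gfp shRNA alone. In TE they were Per1 with pseudocount 1 (0.0040), centring (0.0077), Denr shRNA2 alone (0.0024), scramble shRNA alone (0.022) and the replicate block (0.0014), Rora with Denr shRNA1 alone (0.092) and scramble shRNA alone (0.045), Per3 with Denr shRNA2 alone (0.12) and Cry2 with Gfp shRNA alone (-0.019). In relative 5′ UTR translation they were Per1 with Denr shRNA1 alone (0.092), Gfp shRNA alone (0.067), the replicate block (0.044) and 5′ UTR RNA-seq reads (0.31), and Arntl with scramble shRNA alone (-0.20). With a lysate left out, RNA of Clock ranged from -0.31 to 0.014, CDS footprints of Arntl from -0.20 to 0.018 and of Nr1d2 from -0.034 to 0.087. TE ranged from -0.045 to 0.036 for Per1, -0.015 to 0.076 for Cry1, -0.051 to 0.067 for Cry2, -0.15 to 0.015 for Nr1d2 and -0.19 to 0.090 for Rora, and relative 5′ UTR translation from -0.078 to 0.28 for Arntl and -0.10 to 0.13 for Per1. Of 110 values each with a lysate left out, 103 in RNA, 106 in CDS footprints and 100 in TE kept their direction and side of the threshold, as did 63 of 77 in relative 5′ UTR translation. The 5′ UTR values of Per2, Rora and Cry2 rest on few reads or none.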
